A study of Mus musculus with 6 samples.

Results

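The transcripts described here are the alpha-defensins and other antimicrobial proteins of the mouse Paneth cell, as counted in droplet scRNA-seq libraries of small intestinal mucosa. The set was chosen by gene symbol: every gene named Defa followed by a digit (22 genes), the alpha-defensin genes AY761184 and Gm14851, and Lyz1, Mptx1, Mptx2, Ang4, Itln1 and Mmp7, which gave 30 of the 32285 genes in the count tables. Pla2g2a, a secreted phospholipase that also belongs to the rule, has no row in these tables. The members were described in cell barcodes that drew 5% or more of their unique molecular identifiers (UMIs, each standing for 1 captured RNA molecule) from the set, called the gated barcodes below, and as background in all other barcodes. Of 60706 barcodes, 64 were gated. The study set mice with HuR deleted in the intestinal epithelium against their control littermates to ask how this RNA-binding protein affects Paneth cells. The 3 libraries labelled IE-HuR-/- came from HuR fl/fl mice carrying Cre under the villin promoter, which is active in epithelial cells and not in the blood or stromal cells of the same tissue. The 3 control libraries came from HuR fl/fl littermates without Cre, labelled wild-type. All mice were 6 to 8 weeks old on a C57BL/6 background, and the methods state a fast of 24 h before experiments where the labels give normal feeding. The libraries are named littermate 1 to 3 and IE-HuR-/- 1 to 3, by their labels.

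Paneth cells sit at the base of small intestinal crypts and secrete granules of antimicrobial proteins into the lumen. Alpha-defensins, also called cryptdins in the mouse, are made as precursors that matrilysin, the product of Mmp7, cuts to the active peptides. Lyz1 encodes the lysozyme of Paneth cells, Ang4 a ribonuclease with antimicrobial activity, Itln1 a lectin that binds microbial sugars, and Mptx1 and Mptx2 mucosal pentraxins.

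The 24 alpha-defensin genes lie in a cluster on chromosome 8 (mm10), between chr8:21025545-21735471, with 21 on the plus strand and AY761184, Defa29 and Gm14851 on the minus strand. Their transcripts are so alike that the sequence sets what a count can mean. The coding sequences below (GENCODE vM21, GRCm38/mm10) are those of the genes the results turn on, and capitals mark the bases that differ from Defa24 at the same position.
Defa24: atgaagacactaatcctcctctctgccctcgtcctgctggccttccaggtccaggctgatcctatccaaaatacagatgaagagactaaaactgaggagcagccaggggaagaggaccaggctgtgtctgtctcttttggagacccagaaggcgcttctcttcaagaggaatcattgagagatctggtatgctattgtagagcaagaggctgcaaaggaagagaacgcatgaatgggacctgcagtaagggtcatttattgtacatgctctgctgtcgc
Defa30: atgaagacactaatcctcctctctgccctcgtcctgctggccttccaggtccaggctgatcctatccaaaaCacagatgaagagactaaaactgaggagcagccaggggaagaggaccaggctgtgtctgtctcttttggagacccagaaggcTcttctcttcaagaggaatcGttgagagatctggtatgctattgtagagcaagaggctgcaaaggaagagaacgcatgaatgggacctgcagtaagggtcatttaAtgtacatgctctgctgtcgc
Defa17: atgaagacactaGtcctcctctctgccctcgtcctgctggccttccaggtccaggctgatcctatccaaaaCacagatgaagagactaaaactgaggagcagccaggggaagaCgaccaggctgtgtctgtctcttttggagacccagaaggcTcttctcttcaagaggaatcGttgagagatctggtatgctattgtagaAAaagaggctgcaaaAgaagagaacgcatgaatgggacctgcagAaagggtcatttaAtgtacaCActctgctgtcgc
Defa21: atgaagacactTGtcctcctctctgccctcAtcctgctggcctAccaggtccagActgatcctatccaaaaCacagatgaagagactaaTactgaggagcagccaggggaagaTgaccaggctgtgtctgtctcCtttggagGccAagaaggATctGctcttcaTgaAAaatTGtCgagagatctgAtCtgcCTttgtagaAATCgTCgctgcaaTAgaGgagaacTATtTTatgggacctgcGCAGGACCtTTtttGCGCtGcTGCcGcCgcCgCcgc
Defa22: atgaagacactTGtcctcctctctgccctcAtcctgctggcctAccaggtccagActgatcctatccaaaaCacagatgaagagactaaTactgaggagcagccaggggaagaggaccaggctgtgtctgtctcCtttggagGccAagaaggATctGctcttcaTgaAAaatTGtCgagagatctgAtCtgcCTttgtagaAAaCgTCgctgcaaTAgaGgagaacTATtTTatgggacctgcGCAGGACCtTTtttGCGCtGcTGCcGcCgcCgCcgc
Defa24 (chr8:21734494-21735471, plus strand) and Defa30 (chr8:21134642-21135598, plus strand) differed at 4 of 279 coding bases, although they lie at opposite ends of the cluster. Defa17 differed from Defa24 at 12 bases and had the same coding sequence as Defa3. Defa21 and Defa22 differed from each other at 2 bases and from Defa24 at 60 and 58, and the 300 bases around their start sites (RefSeq, GRCm38.p6) were identical.

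Sharing of whole stretches of transcript was measured as the share of 90-base windows of a gene's transcript that occur in no other annotated gene, since the read length is not given in the sources used here. The share was 100% for Defa24 and AY761184, 95.5% for Defa30, 54.7% for Defa21 and 54.8% for Defa22. It was 9.09% for Defa17, with the other windows shared with Defa3, so Defa17 and Defa3 are best read together. At 50 bases the share was 71.9% for Defa24 and 47.6% for Defa30. Reads of 90 bases would thus tell Defa24 and Defa30 apart. Of the 4 members without a UMI, Defa31, Defa33 and Defa37 had no unshared window of 90 bases, and Defa25 had 51.6%. Their counts of 0 therefore do not show that these 3 genes are silent, since a read shared with a neighbour may be discarded. Over all libraries 24 members had 100 or more UMIs, and Defa2 and Defa27 had 13 and 31.

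The libraries held 59518012 to 91818560 UMIs in 8613 to 15041 barcodes, each barcode with at least 500 UMIs. In all, 435 barcode sequences occurred in more than 1 library, 2 of them belonging to gated barcodes. No 2 libraries were copies of each other, with a chi-square per degree of freedom of 11.5 to 35.6 between libraries of 1 group. Elavl1, which encodes HuR, was at 32.1, 34.4 and 32.3 counts per 1000000 UMIs (CPM) in the littermates and at 36.1, 34.9 and 37.2 in the libraries labelled IE-HuR-/- (33.0 ± 1.29 and 36.1 ± 1.16, SD, n = 3; two-sided exact permutation p = 0.1, the smallest that 3 against 3 allows). The targeted RNA was thus not lower over whole libraries, which include cells in which villin is not active. In the goblet-marker barcodes described below it was at 28.1 and 25.6 CPM on average (log2 fold change 0.04, edgeR adjusted p = 0.877). In the background sums edgeR called it higher in the libraries labelled IE-HuR-/- (0.14, adjusted p = 0.0274). Reads outside the deleted exons do not report a deletion, and where the reads fall in Elavl1 is not given, so this RNA does not check the labels and every direction below rests on the labels.

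The set held 455773 UMIs over the 6 libraries, 397953 of them in the 64 gated barcodes and 57820 elsewhere. There were 5, 11 and 7 gated barcodes in the littermates and 14, 19 and 8 in the libraries labelled IE-HuR-/-. This was 0.04997%, 0.0731% and 0.0762% of barcodes against 0.155%, 0.215% and 0.0929%, a log2 ratio of 1.22 with groups that did not overlap (exact permutation p = 0.1, the smallest possible). Among barcodes with 500 genes or more and at most 25% mitochondrial UMIs, however, 1, 5 and 2 against 3, 2 and 2 remained and the log2 ratio was 0.08 (exact permutation p = 1). The 3 barcodes just inside the threshold had 5.28%, 5.40% and 5.64% of their UMIs from the set, and the 3 just outside had 4.83%, 4.74% and 4.74%.

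The label was checked against a Paneth list of 11 genes without members of the set (Spink4, Clps, Pnliprp2, Nupr1, Sox9, Wnt3 and others), all of which were detected in gated barcodes. Not all were found in every library. Gfi1 had 4 gated UMIs in all, and Wnt3 and Sox9, with 26 and 52, had none in littermate 1. The list summed to 9350, 12279 and 16926 CPM in the littermates and 12597, 8657 and 11304 CPM in the libraries labelled IE-HuR-/-. Spink4, which goblet cells also express and which the goblet list below includes, gave 56.3% to 90.2% of these sums. Without Spink4 the list was at 845 to 6555 CPM in gated barcodes, 309 to 591 CPM in goblet-marker barcodes, 60.3 to 82.4 CPM in T or NK-marker barcodes and 19.2 to 32.8 CPM in enterocyte-marker barcodes. In gated barcodes Clps gave most of this in every library, at 1598, 2533 and 5234 CPM in the littermates and 2388, 507 and 3644 CPM in the others. As summed pools, the gated barcodes thus stood above the other classes. In 12 of the 64, all under 5000 UMIs, no UMI of the list was found, so the label rests on the set alone in these. The 53 gated barcodes under 5000 UMIs, 16 of them from littermates, had medians of 0.240% from the Paneth list and 2.65% from the enterocyte list. The 11 deeper ones, 7 of them from littermates, had 0.958% and 0.225%. The pooled check thus speaks mainly for the deeper barcodes, and not for all 11, since the deepest of IE-HuR-/- 2 had 0.119% from the Paneth list. No gated barcode drew 5% or more of its UMIs from the enterocyte list. In 4 of them, 1 in IE-HuR-/- 1 and 3 in IE-HuR-/- 2, 5% or more came from the goblet list (Muc2, Tff3, Fcgbp, Zg16, Clca1 and others), and 88.7% to 98.9% of their set UMIs were Defa24. Doublets were not removed.

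Few barcodes carried most of the set's RNA. In 53 of the 64, the total was under 5000 UMIs (median 874), and these held 2.53% of the gated set UMIs. The other 11, 7 from littermates and 4 from libraries labelled IE-HuR-/-, held 97.5%, and 2 littermate barcodes with 151395 and 256588 UMIs, 65.0% and 79.9% of them from the set, held 76.2%. Within a library the barcode with the most set UMIs supplied 94.8%, 94.97% and 99.4% of the gated set UMIs in the littermates and 89.7%, 26.7% and 64.7% in the libraries labelled IE-HuR-/-. The make-up of a library's gated pool is thus close to that of 1 barcode in 4 of the 6 libraries.

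Defa24 was the leading transcript in every gated pool, with 38.4%, 41.9% and 42.4% of set UMIs in the littermates and 31.5%, 46.2% and 35.8% in the libraries labelled IE-HuR-/-. These shares are of UMIs, each counted once from 1 end of an RNA, and were not divided by length. Defa30 supplied 13.5%, 20.9% and 16.6% against 17.4%, 14.3% and 11.7%, and Lyz1 supplied 3.96%, 8.32% and 10.3% against 7.43%, 7.09% and 8.49%. The genotypes overlapped for all of these. The 24 alpha-defensins together made up 92.4%, 84.9% and 85.1% of the set in the littermates and 87.0%, 87.0% and 86.5% in the libraries labelled IE-HuR-/-, a mean difference of -0.667 percentage points (exact permutation p = 1).

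Below these stood a group of defensins that varied far more between libraries. Defa21 was at 12.1%, 0.307% and 3.37% of the set in the littermates and at 12.4%, 4.16% and 12.6% in the libraries labelled IE-HuR-/-. Defa22, its near copy, was at 11.9%, 5.45% and 3.89% against 12.1%, 3.32% and 8.74%. AY761184 was at 3.00%, 5.42% and 6.88% against 1.16%, 6.61% and 3.88%. Libraries high in Defa21 were low in AY761184, and the genotypes overlapped for all 3 genes. Defa29 (2.06% to 4.80%), Defa17 (2.71% to 4.33%), Gm14851 (2.11% to 3.58%) and Itln1 (1.84% to 5.28%) kept a narrower range. Ang4 stayed between 0.677% and 1.30%, and Mmp7 between 0.104% and 0.154%.

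**Figure D1:**
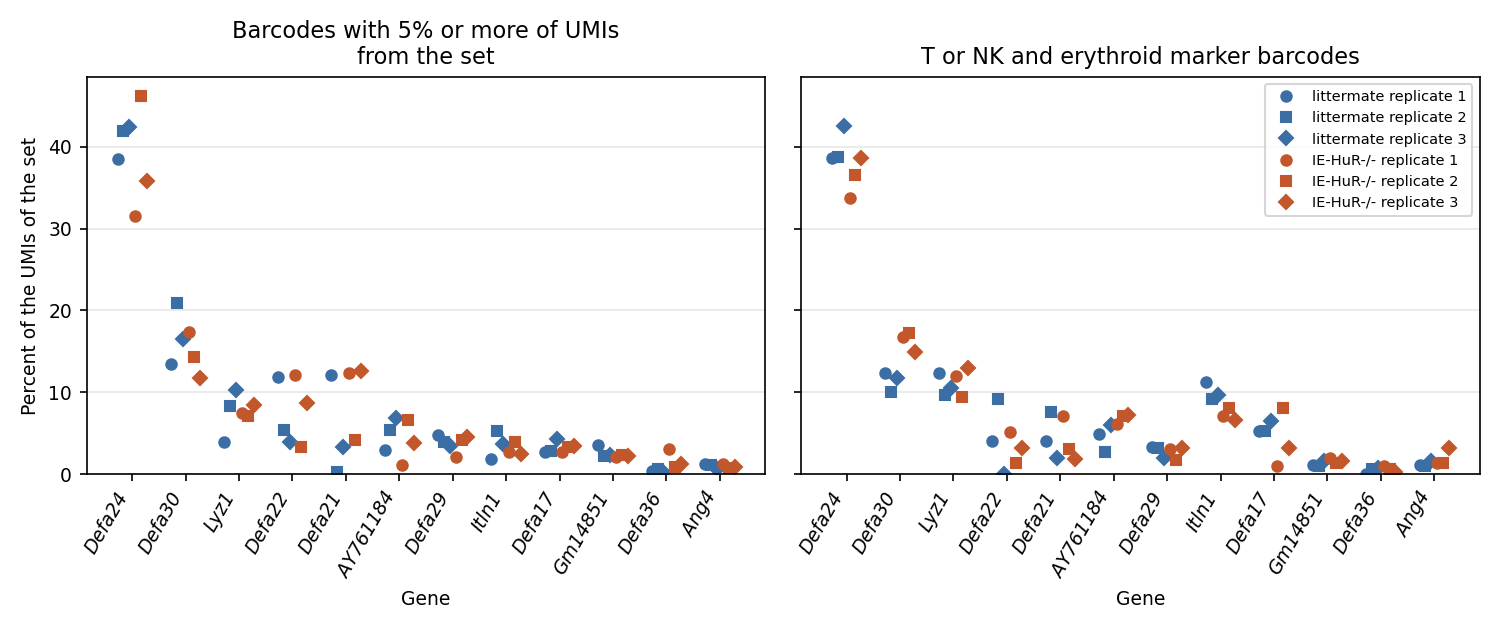
Percent of the set UMIs given by each of 12 members in gated barcodes (left) and in T or NK-marker and erythroid-marker barcodes together (right), with 1 point per library, colored by genotype label. Defa24 is the highest point of every library on the left, at 31.5% to 46.2%, while Defa21 runs from 0.307% to 12.6%.

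Of the 22 members past a low-count filter, 5 had a higher share of set UMIs in every library labelled IE-HuR-/- than in any littermate. These were Defa36, Defa5, Defa34, Defa35 and Mptx2, and 1 member, Defa26, had a lower share. Of the 297 genes tested on the same scale, 3.03% were higher (9, these 5 among them) and 0.337% lower (1, Defa26). For genes outside the set this scale also moves with the set's part of gated UMIs, 15.4% to 79.7% by library. In CPM Mptx2 alone was higher without overlap and no member was lower, beside 2.69% and 9.43% of all genes, so the count depends on the scale. Defa36 was at 0.455%, 0.589% and 0.288% of the set in the littermates and 3.04%, 0.865% and 1.22% in the others. Defa5 was at 0.233%, 0.173% and 0.182% against 0.681%, 0.302% and 0.443%. In IE-HuR-/- 1 the largest barcode held 408 of 433 Defa36, 90 of 97 Defa5, 40 of 42 Defa34 and 18 of 18 Defa35 UMIs. Defa34 and Defa35 had 9 and 4 gated UMIs in IE-HuR-/- 2, and 4 each in littermate 1. The coding sequences of Defa36, Defa5, Defa34 and Defa35 form a group of their own with Defa37, whose coding sequence is the same as that of Defa36. Defa36 and Defa5 differed at 4 of 279 bases, Defa34 and Defa5 at 4, and Defa35 and Defa36 at 3. The share of 90-base windows found in no other gene was 5.14% for Defa36, 8.01% for Defa5, 24.1% for Defa34 and 70.9% for Defa35. Of the Defa36 windows 94.9% were shared with Defa37, which had no UMI. Counts within the group may thus be split between neighbours, and the shares of Defa36, Defa5 and Defa34 are not specific to 1 gene. Mptx2 was at 0.397%, 0.120% and 0.00630% of the set against 1.34%, 1.10% and 1.49%. In littermate 3 the largest barcode held 1 of the 13 gated Mptx2 UMIs but 204952 of the 206246 gated set UMIs. In IE-HuR-/- 3, 698 of the 866 Mptx2 UMIs lay in 1 barcode. The Mptx2 share in each of these libraries thus rests mainly on 1 barcode. Defa26 was at 0.595%, 0.408% and 0.410% against 0.189%, 0.385% and 0.367%. The remaining members were small, with Defa3 at 0.366% to 0.667%, Defa20 at 0.192% to 0.310%, and Defa23, Defa27, Defa28, Defa32 and Defa2 each below 0.25% in all 6 libraries.

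The 11 deep barcodes showed which parts of the mixture vary from cell barcode to cell barcode. Defa24 held 30.4% to 42.5% of set UMIs in all 11, a 1.40-fold range, and Defa17 2.49% to 4.41%. Defa21 ran from 0.0112% to 14.7% (median 9.70%), Mptx2 from 0.000488% to 1.86%, AY761184 from 0.641% to 10.2%, and Defa22 from 1.66% to 13.1%. The highest AY761184 and lowest Defa22 shares came from the deep barcode of IE-HuR-/- 2, with 5.67% of UMIs from the set. The lowest Defa24 and Defa17 shares came from littermate 2 barcodes with 8.46% and 6.12%. These barcodes had 0.119% to 0.179% from the Paneth list, so the label is weak there. The extremes of Defa21 and Mptx2 came from barcodes with 65.0% to 86.8% from the set. Across these 11 barcodes Defa21 and AY761184 were inversely related (Pearson r = -0.81, Spearman rho = -0.72). Defa21 and Defa22 went together (r = 0.88), as did Defa36 and Defa5 (r = 0.88) and Defa29 and AY761184 (r = 0.76). These coefficients are descriptions, since shares of 1 total move against each other, near-identical transcripts share reads and several barcodes come from 1 library. In littermate 2 the T or NK-marker and erythroid-marker barcodes together had Defa21 at 7.59% of the set where the gated pool had 0.307%. That pool was set by its largest barcode, with Defa21 at 0.0112% of 98436 set UMIs, and in the other 10 gated barcodes of the library Defa21 gave 5.89% (307 of 5212 UMIs).

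**Figure D2:**
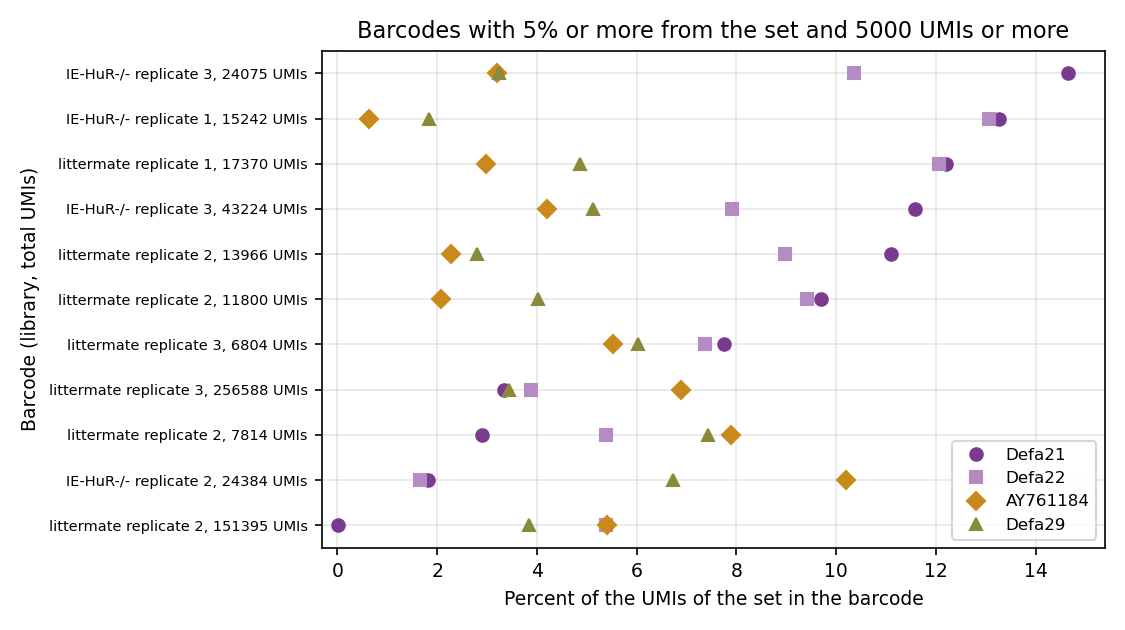
Percent of set UMIs (horizontal axis) given by Defa21, Defa22, AY761184 and Defa29 in each of the 11 gated barcodes with 5000 UMIs or more, 1 row per barcode with its library and total UMIs, ordered by Defa21. Defa22 tends to follow Defa21 down the rows, but not in the littermate 2 barcode with 151395 UMIs (Defa21 0.0112%, Defa22 5.38%). AY761184 tends to rise as Defa21 and Defa22 fall, and barcodes of both genotype labels are found at both ends.

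To compare genotypes, UMIs of the gated barcodes were summed per library and tested with edgeR over the 297 genes that passed a filter on low counts, 22 of them members. Mptx2 was the single member called. It stood at 1598, 641 and 48.6 CPM in the littermates and at 7358, 1689 and 11909 CPM in the libraries labelled IE-HuR-/-, without overlap, and its log2 fold change was 4.96 (SE 1.36, edgeR adjusted p = 0.0442). This is 1 of 22 members, beside 9.09% of all genes tested (27 of 297). The low value of littermate 3 was set by the largest barcode of that library, as given above. The call was lost in 9 of 11 other settings and in 4 of 6 fits without 1 library, with adjusted p values from 0.000633 to 0.993 over the settings. It was lost without littermate 2 (0.180) or 3 (0.0663) and without IE-HuR-/- 1 (0.105) or 3 (0.0862), and log2 fold changes over all of these ran from 2.82 to 5.34.

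The direction of the other members depended on scaling. With trimmed-mean (TMM) scaling 21 of the 22 had a positive log2 fold change, and without it 10 did, while the median of all genes moved from 0.23 to -0.56. The members' own medians were 0.78 and -0.16. Defa24 (0.40, SE 1.59, adjusted p = 0.895), Defa30 (0.31, SE 1.46, adjusted p = 0.908) and Lyz1 (0.48, SE 1.48, adjusted p = 0.874) had standard errors in edgeR larger than their differences. Defa36 (2.88, SE 1.21, adjusted p = 0.165) and Defa34 (2.82, SE 1.03, adjusted p = 0.121) had larger estimates that edgeR did not call. These sums rest mainly on 1 barcode in 4 of the 6 libraries, and a difference in RNA per cell cannot be told apart from a difference in which cells were captured.

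Outside the gated barcodes, the set was present in goblet-, enterocyte-, T or NK- and erythroid-marker barcodes. Of these it was highest in goblet-marker barcodes, at 280, 622 and 799 CPM in the littermates and 1195, 557 and 1450 CPM in the libraries labelled IE-HuR-/-. In the few myeloid-marker barcodes, 7 to 24 per library, the set was at 441, 371 and 41.9 CPM against 154, 709 and 4379 CPM. Lyz1 gave 66.7% to 97.1% of their set UMIs. In T or NK-marker barcodes, which do not make these proteins, the set summed to 35.1, 126 and 51.2 CPM in the littermates and 51.2, 41.5 and 46.1 CPM in the libraries labelled IE-HuR-/-. Over all background barcodes it was 76.1, 177 and 156 CPM against 161, 90.5 and 148 CPM, a log2 ratio of -0.03 (exact permutation p = 0.9). The genotypes overlapped, and the direction of this small difference changed with the gate, with the filter on barcode quality and without littermate 2 (0.20), littermate 3 (0.07) or IE-HuR-/- 2 (0.18).

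The mixture seen in T or NK-marker barcodes was close to that of the gated ones for the leading genes. Defa24 gave 41.3%, 40.5% and 43.4% of set UMIs there in the littermates and 34.5%, 36.6% and 37.5% in the libraries labelled IE-HuR-/-. Defa24 UMIs per Defa30 UMI numbered 2.96, 4.50 and 3.28 against 1.93, 2.07 and 2.42 in T or NK-marker barcodes, and 2.85, 2.00 and 2.56 against 1.82, 3.24 and 3.05 in gated ones. The log2 ratio of gated over T or NK-marker barcodes was -0.11 ± 0.63 (SD, 6 libraries). It ran from -1.17 to 0.65 and was above 0 in 2 of 6 libraries, so the mean hides opposite directions. Alpha-defensins as a whole held 9.30 percentage points less of the set in T or NK-marker barcodes on average. The gate selects barcodes by the UMIs of the set, most of which are alpha-defensins, so these contrasts with gated barcodes are descriptions with no test.

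Over the whole background the alpha-defensin share was lower still. Alpha-defensins were 52.1%, 69.2% and 73.3% of set UMIs in the littermates and 69.9%, 59.3% and 63.7% in the libraries labelled IE-HuR-/-. The gated share was 22.6 percentage points higher on average, again as a description. Itln1 had 16.9% to 33.4% of set UMIs in the background against 1.84% to 5.28% in gated barcodes.

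Itln1 was above its level in T or NK-marker barcodes in enterocyte-marker barcodes. It stood at 29.4, 35.4 and 32.7 CPM in the littermates and 29.2, 31.8 and 30.9 CPM in the libraries labelled IE-HuR-/-, with T or NK-marker barcodes at 3.27, 12.2 and 3.52 against 3.66, 3.10 and 3.16 CPM. The log2 ratio was 2.93 ± 0.69 (SD, higher in 6 of 6 libraries, exact paired permutation p = 0.03125, the smallest that 6 pairs allow). Neither Defa24 (log2 ratio -0.46, p = 0.0938 by the same exact paired test) nor Lyz1 (-0.11, exact paired p = 0.562) exceeded the T or NK level on average in enterocyte-marker barcodes, and Defa30 was below it in 6 of 6 libraries (-0.86, exact paired p = 0.03125). Mptx1 hardly occurred in gated barcodes, with 7 UMIs, while 151 of its 179 background UMIs (84.4%) lay in goblet-marker barcodes. The background barcode with the most held 12 of 35, 6 of 36 and 11 of 33 Mptx1 UMIs in the littermates. In the libraries labelled IE-HuR-/- it held 26 of 36, 3 of 4 and 26 of 35.

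A further pattern set Defa24 apart from its near copy. In goblet-marker barcodes, those with 5% or more of UMIs from the goblet list and under 5% from the set (239, 299 and 162 in the littermates; 190, 164 and 183 in the libraries labelled IE-HuR-/-), Defa24 was at 161, 452 and 602 CPM against 924, 405 and 1138 CPM. Defa30 was at 2.21, 5.47 and 68.0 CPM against 2.55, 2.45 and 2.71 CPM, and 297 of the 303 Defa30 UMIs of littermate 3 lay in 1 barcode. Apart from that barcode, Defa30 stood below its level in T or NK-marker barcodes (4.90 to 11.4 CPM) where Defa24 was far above its own.

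Defa24 UMIs per Defa30 UMI came to 73.0, 82.7 and 8.86 in the littermates and 362.5, 165 and 419.5 in the libraries labelled IE-HuR-/-. Set against T or NK-marker barcodes of the same library, the log2 ratio was 5.26 ± 2.34 (SD, higher in 6 of 6 libraries, exact paired permutation p = 0.03125). Defa24 itself exceeded the T or NK level by a log2 ratio of 4.64 ± 1.16 (6 of 6, exact paired p = 0.03125), and Defa30 did not (-0.62 ± 1.95, higher in 1 of 6, exact paired p = 0.5). As given above, the transcripts of these 2 genes share no window of 90 bases.

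**Figure D3:**
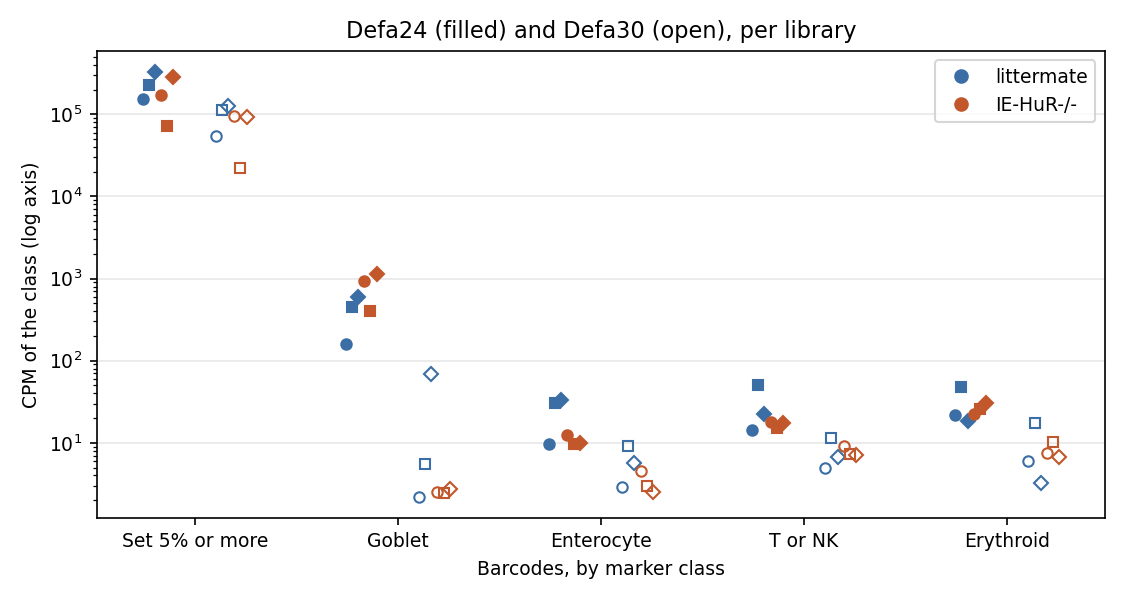
Defa24 (filled) and Defa30 (open) in CPM on a log axis, in gated, goblet-marker, enterocyte-marker, T or NK-marker and erythroid-marker barcodes, 1 point per library, colored by genotype label. The 2 genes lie close together in every class but the goblet-marker barcodes, where Defa24 stands at 161 to 1138 CPM and Defa30 at 2.21 to 68.0 CPM.

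The Defa24 signal in goblet-marker barcodes came from a minority of them. Of 1237, 105 (8.49%, exact 95% binomial interval 6.99% to 10.2%) had 10 or more Defa24 UMIs: 15, 23 and 15 in the littermates and 16, 13 and 23 in the libraries labelled IE-HuR-/-. In 89 of these 105 there was no Defa30 UMI, and together the 105 held 14579 Defa24 UMIs beside 621 UMIs of all other alpha-defensins. The highest barcode had 1328 Defa24 UMIs and 1 Defa30 UMI. Elsewhere 10 or more Defa24 UMIs were rare, in 16 of 19480 enterocyte-marker barcodes (0.0821%) and 1 of 5920 T or NK-marker barcodes (0.0169%). Goblet-marker barcodes were deeper, with median totals of 9277 to 20944 UMIs against 2871 to 5274 and 4273 to 5532. After every barcode was thinned to 5000 UMIs the shares were 5.15% of 855 goblet-marker barcodes, 0.0116% of 8622 enterocyte-marker barcodes and 0 of 2777 T or NK-marker barcodes, with 382, 10858 and 3143 shallower barcodes left out. A count of 0 with an exact 95% interval allows up to 0.133%, and these intervals cover counting error only.

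**Figure D4:**
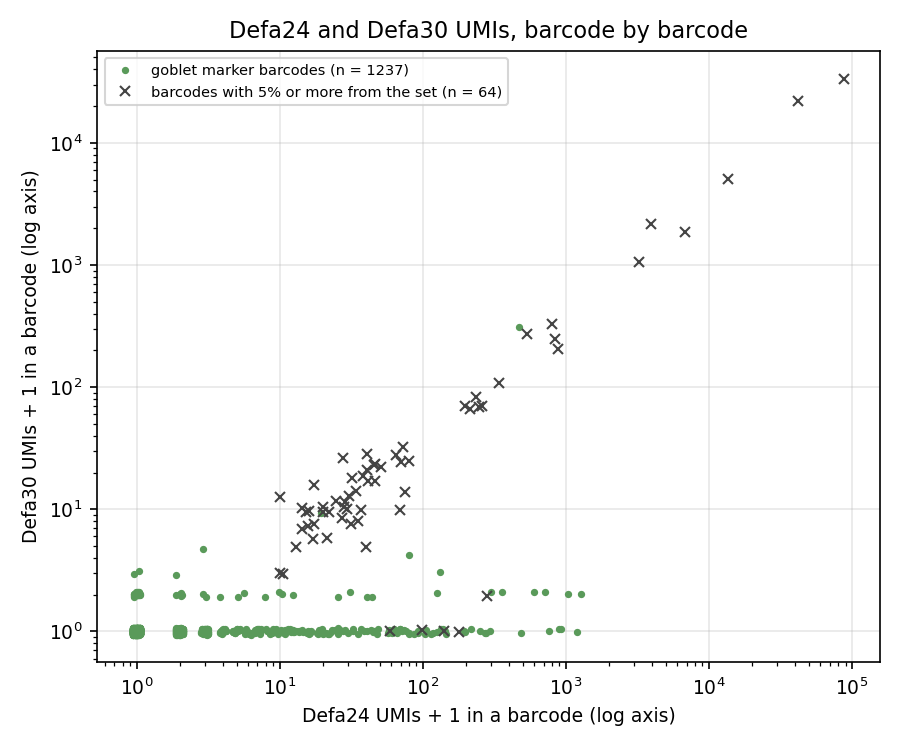
Defa24 against Defa30 UMIs plus 1 in each of the 64 gated (crosses) and 1237 goblet-marker (dots) barcodes, on log axes, with points slightly jittered. Most crosses follow a diagonal, while goblet-marker barcodes extend along the Defa24 axis up to 1328 UMIs with few or no Defa30 UMIs, apart from the littermate 3 barcode with 297.

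The share of goblet-marker barcodes with 10 or more Defa24 UMIs was 7.74% ± 1.49 in the littermates and 9.64% ± 2.55 in the libraries labelled IE-HuR-/- (SD, n = 3; exact permutation p = 0.4). Other members accompanied Defa24 there. In the 105 barcodes Defa17 had a median over libraries of 25.3 CPM against 1.03 CPM in the other goblet-marker barcodes, Itln1 313 against 48.5, Ang4 84.4 against 16.1 and Mptx1 13.4 against 3.36, each higher in 6 of 6 libraries. The barcodes were picked on Defa24, they were deeper, with median totals of 23535 to 45883 UMIs against 6832 to 20382, and no test was made. For Mptx1 and Defa17 the values rest on few UMIs, 1 to 32 and 5 to 55 per library. Of the 45 Defa17 UMIs in IE-HuR-/- 2, 41 lay in 1 barcode. A single barcode of IE-HuR-/- 3 held 26 of its 32 Mptx1 UMIs. Lyz1 was at 105 against 26.4 CPM (higher in 5 of 6 libraries) and Mmp7 at 6.89 against 3.73 CPM (4 of 6). The goblet list was at a median of 245587 CPM in them against 222939 (higher in 4 of 6), and the enterocyte list at 34267 against 37554 (3 of 6). The Paneth list without members of the set was at 6441 against 4572 (5 of 6). Spink4 belongs to the goblet list too and gave 76.2% to 95.9% of the Paneth list in goblet-marker barcodes. The Paneth and goblet lists are thus not separate measures here.

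Goblet-marker barcodes were then compared between genotypes by their sums per library, a comparison chosen after the values above were seen. In edgeR 9152 genes were tested, of which 26.8% were called (2453), and 6 of the 8 members that passed the filter were called, 1 of which passed it through 1 group only. Mmp7 had the largest log2 fold change of these. Its UMIs numbered 1, 7 and 0 in the littermates and 52, 23 and 62 in the libraries labelled IE-HuR-/-, or 0.184, 1.28 and 0 CPM against 13.3, 7.04 and 16.8 CPM, without overlap. The log2 fold change was 4.69 (SE 0.51, edgeR adjusted p = 4.9e-06), ranging from 4.19 to 4.80 in 6 other settings and from 4.21 to 6.76 without 1 library, the highest without littermate 2 (edgeR or DESeq2 adjusted p at most 0.000188). Mmp7 passed the filter on low counts only through the libraries labelled IE-HuR-/- (0 of 3 littermates lay above the limit of 2.39 CPM), so among tested genes it had to differ, and its call is no support beyond the values above. The UMIs were spread over 20, 15 and 18 barcodes against 1, 6 and 0. In T or NK-marker barcodes of all libraries 5 of 5920 held a Mmp7 UMI (0.0845%), against 10.5%, 9.15% and 9.84% of goblet-marker barcodes in the libraries labelled IE-HuR-/-. After thinning to 5000 UMIs, 8 of 128, 4 of 99 and 6 of 115 goblet-marker barcodes there had one, and 0 of 177, 2 of 213 and 0 of 123 in the littermates.

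**Figure D5:**
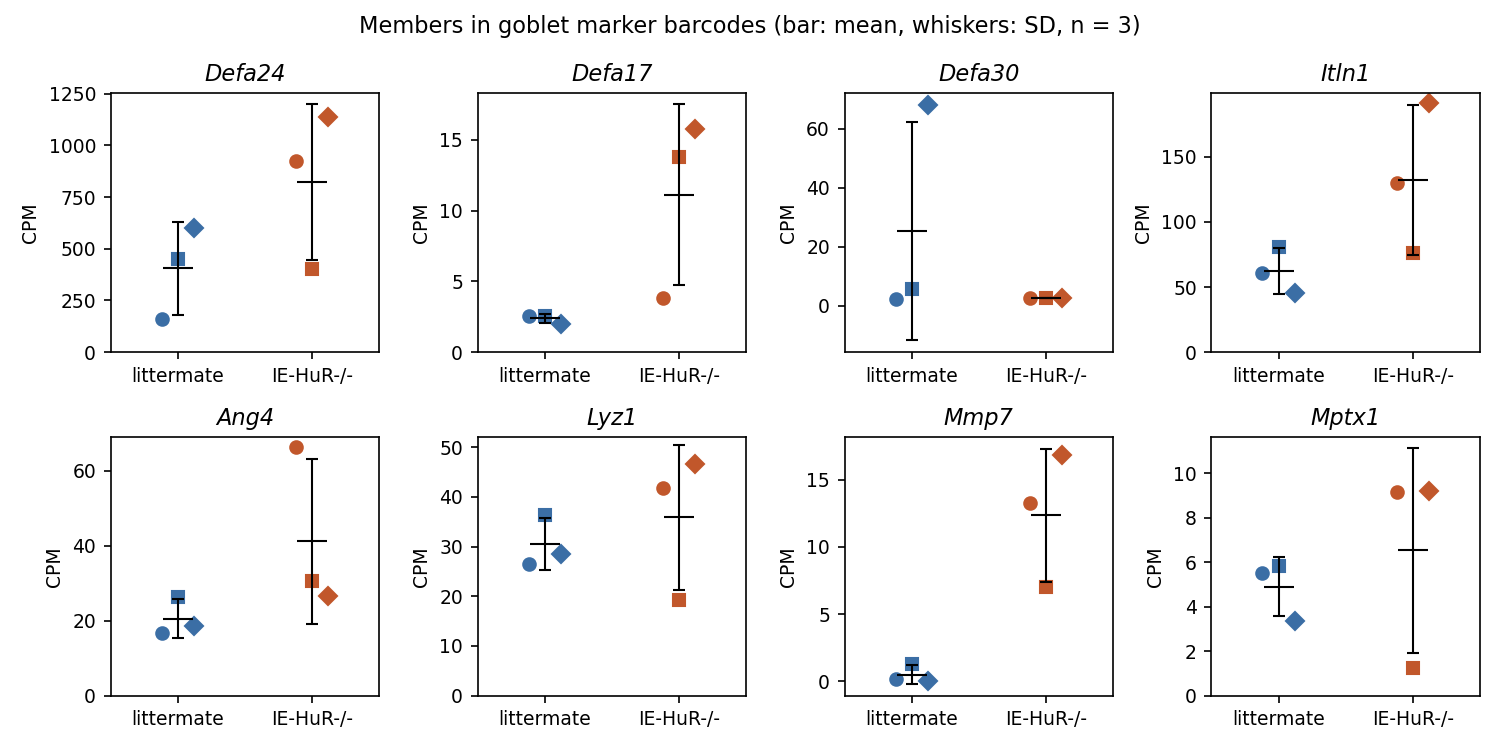
Level of 8 members in goblet-marker barcodes, in CPM on linear axes, with 1 point per library, horizontal lines for the mean and whiskers for the SD of 3 libraries per genotype label. Mmp7 stands at 0 to 1.28 CPM in the littermates and 7.04 to 16.8 CPM in the libraries labelled IE-HuR-/-, while the points of Defa24, Defa30, Itln1, Lyz1 and Mptx1 overlap.

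The other calls were smaller. Itln1 was at 61.0, 80.7 and 45.1 CPM in the littermates and 129.7, 75.9 and 191 CPM in the libraries labelled IE-HuR-/- (log2 fold change 1.26, SE 0.25, edgeR adjusted p = 0.00114). IE-HuR-/- 2 lay within the littermate range. Ang4 was at 16.8, 26.4 and 18.6 CPM against 66.5, 30.6 and 26.6 CPM (1.18, SE 0.26, edgeR adjusted p = 0.00316), without overlap, and fell short of the threshold in DESeq2 (0.0585) and in barcodes with under 5% of the enterocyte list (0.0561). Without IE-HuR-/- 1 its log2 fold change was 0.64.

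Defa17 was at 2.58, 2.55 and 2.02 CPM against 3.82, 13.8 and 15.7 CPM (2.35, SE 0.41, edgeR adjusted p = 0.000466). The groups did not overlap, but 41 of the 45 UMIs in IE-HuR-/- 2 lay in 1 barcode, and without it that library was at 1.26 CPM. Defa24 had a log2 fold change of 1.20 (SE 0.36, edgeR adjusted p = 0.0190) with overlapping groups, and was not called in DESeq2 (0.218), without littermate 1 (0.82, adjusted p = 0.0661) or without IE-HuR-/- 3 (0.88, adjusted p = 0.0714). Defa30 was lower (-3.02, SE 1.02, edgeR adjusted p = 0.0370) only through the 1 barcode of littermate 3, and without that library the log2 fold change was -0.41 (adjusted p = 0.537). It was also not called in DESeq2 or without any 1 of the libraries labelled IE-HuR-/- (adjusted p 0.0670 to 0.0955). Lyz1 (0.42, SE 0.22, adjusted p = 0.177) and Mptx1 (0.60, SE 0.41, adjusted p = 0.303) were not called in edgeR.

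Markers of other types moved with the genotype in these barcodes, and 7 of the 11 lists did not overlap between the groups. The Paneth list without members of the set was at 2363 to 3308 CPM in the littermates and 6200 to 9135 CPM in the libraries labelled IE-HuR-/-, and the rise came from Spink4 (2148 against 7707 CPM on average). Without Spink4 the list was at 496 to 591 CPM against 309 to 390 CPM, and Clps, a colipase, fell from 458 to 163 CPM (log2 fold change -1.32, SE 0.11, edgeR adjusted p = 2.1e-07). Other genes of the list went the other way. Nupr1 rose from 66.9 to 151 CPM on average (1.35, edgeR adjusted p = 1.2e-05) and Pnliprp2 from 21.6 to 31.9 CPM (0.71, edgeR adjusted p = 0.0065). Gfi1 was not called. The sum of the list without Spink4 was thus lower, while its genes moved in both directions. Lists that were higher with the IE-HuR-/- label were the tuft list, at 3.32 to 4.55 against 13.8 to 51.7 CPM, the enteroendocrine list, at 24.5 to 32.8 against 53.2 to 70.0 CPM, and the B or plasma list, at 2.95 to 9.47 against 10.6 to 15.8 CPM. Lower were the enterocyte list, at 39943 to 42185 against 26541 to 35651 CPM, the stem and progenitor list, at 34.2 to 43.5 against 23.6 to 26.8 CPM, and the erythroid list, at 32.3 to 76.1 against 27.4 to 32.1 CPM. Their part in the member differences was not tested.

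In the sums of all background barcodes, edgeR called 52.6% of 15243 genes (8011) and 2 of the 17 members tested. Mmp7 was at 0.0752, 0.535 and 0.529 CPM in the littermates and 1.98, 0.626 and 1.06 CPM in the libraries labelled IE-HuR-/- (log2 fold change 1.69, SE 0.55, edgeR adjusted p = 0.0255). These sums include the goblet-marker barcodes. They held 1, 7 and 0 of the 6, 49 and 35 Mmp7 UMIs in the littermates. In the libraries labelled IE-HuR-/- they held 52, 23 and 62 of 118, 41 and 70. A further 49 UMIs of IE-HuR-/- 1 lay in 1 barcode with 4.94% of UMIs from the goblet list. The Mmp7 call is thus not a second result apart from the goblet-marker one. Mptx2 was at 0.175, 0.306 and 0.287 CPM against 0.555, 0.336 and 0.456 CPM (0.81, SE 0.30, edgeR adjusted p = 0.0446). The groups did not overlap for either gene, yet both calls were lost in DESeq2 (0.0997 and 0.112), and without IE-HuR-/- 1 (0.126 and 0.164) or IE-HuR-/- 3 (0.0525 and 0.106). Mptx2 was also not called without littermate 1 (0.140) or littermate 3 (0.0665), in barcodes with under 1% of UMIs from the set (0.0627), or with the filter on barcode quality (log2 fold change 0.40, adjusted p = 0.530). Scaled to the set, neither gene was called (Mmp7, 0.254). The 15 other members, Defa24 (0.19, SE 0.38, adjusted p = 0.706) and Lyz1 (-0.09, SE 0.29, adjusted p = 0.810) among them, were not called by edgeR.

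Genes of the same lineage outside the set gave a mixed picture. Of 19 Paneth lineage genes, 6 could be tested in gated barcodes and none was called by edgeR, 5 were higher and 3 lower among 19 tested in the background, and 5 were higher and 1 lower among 13 tested in goblet-marker barcodes. Over all genes tested 9.09%, 52.6% and 26.8% were called, so 8 of 19 in the background lies below the share of all genes. In goblet-marker barcodes the share of the lineage genes called lies above that of all genes. The genes called higher there include Spink4 and Agr2, which are also in the goblet list that picked these barcodes. The medians of the lineage genes' log2 fold changes were 0.33, 0.05 and 0.24, beside 0.23, -0.01 and -0.02 over all genes. The Reg family of secreted lectins moved in both directions. In the background 2 of 6 were higher in the IE-HuR-/- group, Reg3b and Reg3g, and 3 were lower, namely Reg1 (log2 fold change -1.54, edgeR adjusted p = 1.8e-08), Reg3a (-0.79, edgeR adjusted p = 8.1e-06) and Reg3d (-0.995, edgeR adjusted p = 0.0131), with a family median of -0.62. In gated and goblet-marker sums Reg3b and Reg3g were the only Reg genes called, of 3 and 5 tested. In gated barcodes Reg3b was at 235, 103 and 18.7 CPM in the littermates and 1965, 3104 and 358 CPM in the others (log2 fold change 5.04, SE 0.76, edgeR adjusted p = 0.00926). These are 5, 20 and 5 UMIs against 51, 147 and 26. Of the littermates only littermate 1 lay above the filter's limit of 167 CPM. Reg3b thus passed the filter through the libraries labelled IE-HuR-/-, and its call is no support beyond these values. Reg3g was at 939.7, 299.9 and 59.9 CPM against 4699.9, 2555 and 2764 CPM (4.39, SE 0.91, edgeR adjusted p = 0.0154). In the background, Reg3b was at 1663 to 2018 CPM against 8630 to 9010 CPM and Reg3g at 727 to 896 CPM against 3234 to 3442 CPM. The gated calls were not stable, since Reg3b was not called in 3 and Reg3g in 6 of the other settings in which they were tested (adjusted p up to 0.618 and 0.993), and Reg3g not without littermate 2 (0.113). The higher gated level ran beside a higher level of the same RNAs in all other barcodes, and the part of RNA from other cells was not tested.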

How the data were processed

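Mucosa of the small intestine from 3 control littermates and 3 IE-HuR-/- mice was dissociated with EDTA and TrypLE, and 1 droplet library per labelled sample was sequenced. The files the authors deposited hold UMI counts, not normalized, for each gene in each barcode, and their headers name CellRanger 6.1.2 (the labels give mm10 and a 5′ kit, and the methods another version, a human reference and a 3′ kit). Ambient RNA correction is not given in the sources used here, and no doublet caller was run on these counts.

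Members, gene lists and tests were chosen with earlier results of these data known. Set members were found by symbol. The gated barcodes are those with 5% or more of UMIs from the set, whatever their quality. Marker classes used lists of genes outside the set. At least 5% of UMIs was needed from the goblet, enterocyte or erythroid list. For the myeloid list it was at least 1%, and for the T or NK list at least 0.5%. Barcodes passing several lists were kept apart. These thresholds and the goblet comparison were chosen after values had been seen. No barcode was removed. Named genes are Elavl1, the members and, from the Paneth lineage and Reg lists, those with the most UMIs. Reg1, Reg3a, Reg3d, Spink4, Agr2, Clps, Nupr1, Pnliprp2 and Gfi1 were named after their values were seen.

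UMIs were summed per library and class and tested with edgeR 4.0.16 (quasi-likelihood, TMM, filterByExpr with a minimum count of 10, Benjamini-Hochberg adjustment over all genes tested) in R 4.3.3. The SE was derived from the fold change and the F statistic. Single values were tested by two-sided exact permutation over libraries (SciPy 1.17.1), pairing classes within a library. The planned test of the alpha-defensin share in gated against background barcodes is not given, because the gate uses the same UMIs. The fit was tested on simulated data. Alternatives were DESeq2 1.42.0, no TMM, scaling to the set, no filter, other gates, barcode filters, the replicate number as a block and each library left out. Transcripts were taken from GENCODE vM21 and promoters from RefSeq. Library depth sets the precision, with 59518012 to 91818560 UMIs per library. P-values measure the spread between libraries. The gated sums held only 21283 to 267286 UMIs, in most libraries mainly from 1 barcode. Their p-values therefore also carry differences between single barcodes.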

Additional observations from a re-analysis of the deposited data

Results flagged for a closer look

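Some alpha-defensin genes lay outside the symbol rule and still carried UMIs, mostly in the gated barcodes. The count tables list them under older names, and RefSeq names them as further alpha-defensins. Gm7861 (RefSeq Defa43) had 6896 UMIs over the 6 libraries, 6138 of them in gated barcodes. Its UMIs numbered 160, 1590 and 3886 in the littermates and 107, 178 and 975 in the libraries labelled IE-HuR-/-. Gm15293 (Defa41) had 1065 UMIs (998 gated), Gm15292 (Defa40) 774 (710 gated) and Gm7849 (Defa42) 22 (21 gated). They were picked out because they are alpha-defensins outside the set, and they were not added to it. In the fits over all genes they could enter only as genes outside the set. The Gm7861 UMIs by library are not scaled. The set held 14640, 119858 and 216531 UMIs in the littermates and 23836, 13209 and 67699 in the libraries labelled IE-HuR-/-. Within the set, Gm14851 is named Defa38 by RefSeq and had 9629 UMIs, so Gm7861 ranked close to a member that was counted.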

How the results depend on the processing

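The gated share of barcodes kept its sign in all 5 other settings and all 6 fits without 1 library, with a log2 ratio of 0.08 to 1.48 in all. The 0.08, with the filter on barcode quality, is close to no difference. Gated barcodes under 5000 UMIs numbered 16 in the littermates and 37 in the libraries labelled IE-HuR-/-, and the deeper ones 7 and 4. The higher share thus lay in the shallow barcodes, where the Paneth label is weak. The share of alpha-defensins in the set was 20.6 to 31.1 percentage points higher in gated than in background barcodes under 7 other settings and 19.1 to 24.7 points without 1 library, all of which select barcodes on the same UMIs, so nothing is read from this range. The set total in background barcodes turned from a log2 ratio of -0.03 to 0.0376 with a gate at 10% and to 0.0528 with the filter on barcode quality, and ran from -0.32 to 0.20 without 1 library. The genotype difference in the alpha-defensin share turned from -0.667 points to 0.925 with the filter on barcode quality and 1.47 without barcodes of 100000 UMIs or more, the latter chosen after seeing the data, and ran from -1.95 to 1.80 without 1 library.

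The 27 genes called in gated barcodes became 1 with a gate at 2%, 0 with the filter on barcode quality, 0 without barcodes of 100000 UMIs or more, 16 without barcodes of 5% or more from the goblet list, 2 without TMM, 0 scaled to the set, 48 with DESeq2, 8 without a filter on low counts and 11 to 46 without 1 library (11 without littermate 2 or IE-HuR-/- 1, 46 without IE-HuR-/- 3). At an unadjusted p under 0.05 the settings with 0 adjusted calls had 26, 27 and 7 in edgeR. The 8011 genes called in the background became 149 scaled to the set and were 6967 to 7673 without 1 library. The 2453 of the goblet comparison stayed between 1744 and 2956. Causes were not tested. Of the members, 0 to 5 were called in gated, 0 to 7 in background and 3 to 12 in goblet-marker barcodes. The number of members and of genes tested changed with the setting, so nothing is read from these counts about the members.

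Same-numbered libraries correlated at -0.0725 to 0.0122 in their deviations from the group means in the background and at -0.0814 to 0.0136 in goblet-marker sums. The numbers were therefore not taken to pair the libraries. In gated sums the same-numbered values were -0.0077, 0.374 and 0.454, beside -0.500 to 0.251 for the other pairs. The gated values thus do not settle whether the numbers pair the libraries. With the replicate number as a block 33, 7511 and 2293 genes were called. No member was called in gated (Mptx2, log2 fold change 4.30, adjusted p = 0.0760 in edgeR) or background sums (Mptx2, 0.80, adjusted p = 0.0850; Mmp7, 1.64, adjusted p = 0.0618), and 6 in goblet-marker sums.

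Depth limits the gated comparison, in which 53 of 64 barcodes had under 5000 UMIs.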

Other observations

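Lyz1 was also the main member in myeloid-marker barcodes of every library. Its UMIs there numbered 70, 20 and 2 in the littermates and 9, 99 and 563 in the libraries labelled IE-HuR-/-. The highest count came from a single barcode. In IE-HuR-/- 3, 1 barcode with 54155 UMIs held 545 Lyz1 UMIs and no UMI of any other member. It drew 5.70% of its UMIs from the myeloid list, which includes Lyz2, the lysozyme of macrophages, at 2386 UMIs. Lyz1 and Lyz2 are close paralogs, so the split of their counts is uncertain.

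Goblet-marker barcodes also held Lyz1 and Ang4 above their levels in T or NK-marker barcodes. Ang4 did so by a log2 ratio of 4.98 ± 0.84 (SD, higher in 6 of 6 libraries, exact paired permutation p = 0.03125, the smallest that 6 pairs allow), Itln1 by 4.38 ± 1.12 and Lyz1 by 2.40 ± 0.45, each with the same p. Of the background Defa24 UMIs, 56.5% lay in goblet-marker barcodes, which made up about 2% of barcodes in each genotype (2.05% ± 0.316 in the littermates and 2.03% ± 0.150 in the libraries labelled IE-HuR-/-, n = 3).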
